A study of Mus musculus with 40 samples.

Results

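Interferon-stimulated genes are switched on in a cell that senses interferon, and their products block virus entry, degrade or sequester foreign RNA, modify host proteins with the ubiquitin-like protein ISG15 and raise the level of the nucleic acid sensors themselves. The set described here holds 42 mouse genes of this class, chosen by name from well-known antiviral effectors. All 42 were listed among the 43430 genes of the deposited count table, and all 42 passed the filter on low counts that left 11853 genes for testing. They fall into 9 groups by role, namely 4 IFIT RNA-binding proteins, 5 OAS family members, 2 genes of the viperin locus, 4 interferon-induced GTPases, 3 genes of ADP-ribosylation, 6 genes of ISG15 and ubiquitin ligation, 4 nucleic acid sensors, 6 restriction factors and 8 others.

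The genes were measured by polyA RNA-seq in bone marrow-derived macrophages (BMDMs), which were grown from mouse marrow in medium with M-CSF. The study dealt with electron transport and NLRP3 inflammasome activation, and these libraries compare complex I inhibition in resting macrophages and in those given LPS, a component of the outer membrane of Gram-negative bacteria. Complex I is the first enzyme of the respiratory chain. WT mice carried the Vav-Cre allele alone, and NDI1 mice carried Vav-Cre together with NDI1, a yeast NADH dehydrogenase that moves electrons from NADH to ubiquinone and is not blocked by piericidin A. The NDI1 construct sat in the Rosa26 locus behind a lox-stop-lox cassette, so Vav-Cre opened it throughout the hematopoietic lineages and not in macrophages alone. Both genotypes are labelled C57/Bl6, and per the methods male and female mice 8 to 14 weeks old were used. Marrow cultures from 5 WT mice and 5 NDI1 mice were each divided over 4 wells, giving 40 libraries in 8 groups of 5. A well was left untreated, or received 500 nM piericidin A (an inhibitor of complex I), 100 ng/ml LPS for 4 h, or piericidin A starting 30 min before the same LPS treatment. In bulk RNA a change in the share of cells that express a gene and a change in RNA per cell cannot be told apart.

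Total counts ran from 6950748 to 13552070 per library. All 8 macrophage markers examined were present, with a summed level of 19674 to 38691 CPM, the usual unit of counts scaled to the TMM-adjusted library size. Neutrophil markers (7 of 7 detected) summed to medians of 29.2 CPM in untreated WT, 47.1 with piericidin A, 47.2 with LPS and 107 with both, and WT mouse 496 held the highest sum in each of these groups, at 268, 957, 626 and 1584 CPM. In NDI1 BMDMs the medians were 41.5, 33.7, 61.6 and 79.1 CPM, and mouse 503 held the highest sums, at 272, 353, 540 and 541 CPM. The part of these cells in the results was not tested, and counts are also given without both mice where that changed them. Dendritic cell markers (7 detected) summed to at most 37.9 CPM, T and B cell markers (5) to 11.9, mast cell and basophil markers (3) to 6.58 and stromal markers (4) to 55.1. Among natural killer cell markers 2 of 3 were at 0 in every library, and among erythroid markers 1 of 4.

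LPS binds the receptor TLR4, whose adaptor TRIF (encoded by Ticam1) leads through the kinase TBK1 and the factor IRF3 to transcription of interferon beta. Secreted interferon binds IFNAR on the same and on neighbouring cells, and the receptor's kinases JAK1 and TYK2 then activate transcription factors. These bind the interferon-stimulated response element (ISRE) in the promoters of such genes, and a second element is the gamma-activated site (GAS).

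RefSeq promoter windows on GRCm38.p6, from 250 bases before to 50 bases after the start site, were at hand for 32 of the 42 genes, and Oas2, Mx1, Mx2, Parp9, Parp14, Usp18, Dhx58, Zbp1, Rtp4 and Tor3a were not in the table. An ISRE core was searched as 2 copies of GAAA with 2 bases of any kind between them and a GAS as TTCNNNGAA, each on both strands, and matches of one element may overlap those of the other. The ISRE core was found in 16 of the 32 genes (50.0%) and in 3.99% of the 27025 genes with such windows. In 13 of the 16 a match lay before the start site. The GAS pattern was found in 7 of the 32 (21.9%) against 9.55% of all genes with windows. The 120 bases directly before the start site follow for 6 genes, shown because their values carry the results below. Ifit1, Isg15 and Rsad2 are classic targets with large LPS responses, in untreated WT Trim21 fell and Oasl1 rose with piericidin A, and Ddx60 passed the test for piericidin A in WT with the mouse as a block but not without it. They read 5′ to 3′ on the strand of the gene, with ISRE matches in capitals (a match on the opposite strand shows as 2 copies of TTTC).
Ifit1, chr19:34640769-34640888, plus strand: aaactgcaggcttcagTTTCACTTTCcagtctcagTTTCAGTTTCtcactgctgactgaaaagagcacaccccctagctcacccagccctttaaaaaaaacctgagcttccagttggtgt
Isg15, chr4:156200819-156200938, minus strand: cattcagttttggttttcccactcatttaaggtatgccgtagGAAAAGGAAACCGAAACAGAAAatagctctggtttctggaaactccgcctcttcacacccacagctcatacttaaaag
Rsad2, chr12:26456453-26456572, minus strand: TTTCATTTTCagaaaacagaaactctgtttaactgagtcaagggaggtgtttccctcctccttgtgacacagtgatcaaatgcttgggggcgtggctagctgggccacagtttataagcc
Ddx60, chr8:61927967-61928086, plus strand: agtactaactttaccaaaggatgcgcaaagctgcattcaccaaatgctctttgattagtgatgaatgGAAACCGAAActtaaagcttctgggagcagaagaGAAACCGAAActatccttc
Oasl1, chr5:114923120-114923239, plus strand: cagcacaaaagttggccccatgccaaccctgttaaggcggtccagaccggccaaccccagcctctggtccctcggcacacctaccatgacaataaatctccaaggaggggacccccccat
Trim21, chr7:102565483-102565602, minus strand: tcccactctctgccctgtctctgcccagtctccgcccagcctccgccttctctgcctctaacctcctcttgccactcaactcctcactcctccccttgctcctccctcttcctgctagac

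Ifit1 held 2 separate matches on the opposite strand, Isg15 held 3 overlapping matches in 1 run, and Ddx60 held 2. The window of Oasl1 held neither pattern, and the 2 matches of Trim21 began 13 and 19 bases after the start site, outside the stretch printed. A match describes these letters only and does not show that a factor bound there.

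LPS raised every one of the 42 genes in both genotypes. In WT BMDMs the median log2 fold change was 3.42, with a range from 1.14 for Lgals3bp to 7.16 for Rsad2, and in NDI1 BMDMs the median was 3.47. LPS changed 62.5% of all genes tested in WT and raised 31.5% (NDI1: 62.7% changed, 31.5% raised; edgeR quasi-likelihood test, Benjamini-Hochberg adjusted p under 0.05). For all 42 genes the 5 LPS libraries lay above the 5 untreated ones in each genotype, while the groups did not overlap for 49.8% of all genes in WT and 47.9% in NDI1. The 42 genes together took 0.378 to 0.735% of all counts in the 20 libraries without LPS and 4.66 to 7.27% in the 20 with it. Their mean log2 CPM was 5.78 ± 0.35 in untreated WT and 9.67 ± 0.29 with LPS, and 5.68 ± 0.40 and 9.62 ± 0.20 in NDI1 (SD, n = 5 each).

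**Figure D1:**
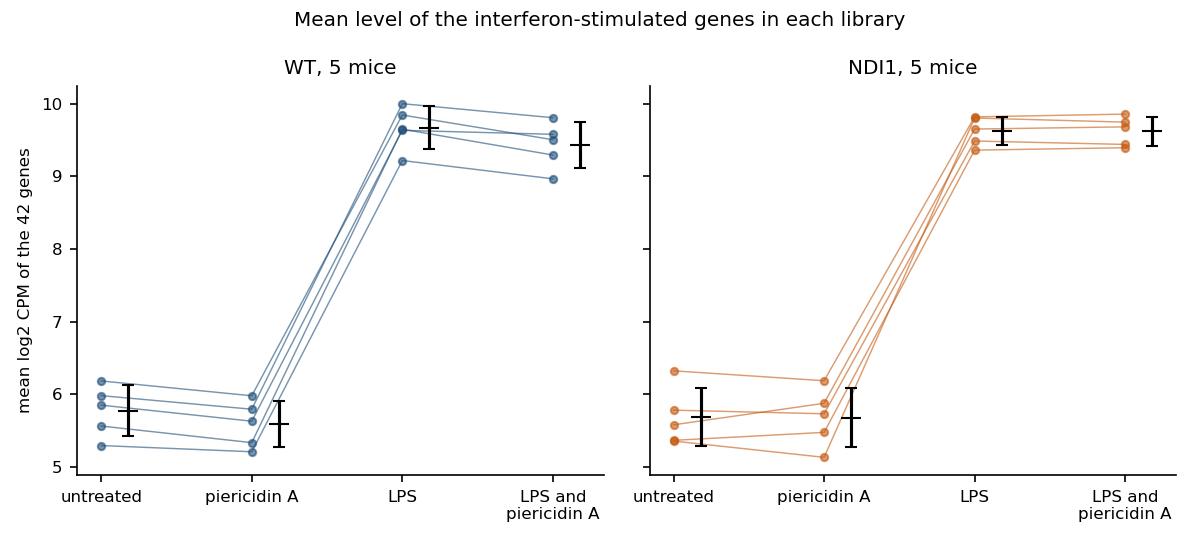
Mean log2 CPM of the 42 interferon-stimulated genes (y axis) in each of the 40 libraries by treatment (x axis), with WT and NDI1 BMDMs in separate panels. Points are libraries, lines join the 4 libraries of a mouse, and bars give the group mean and SD. With LPS and piericidin A the WT mean was 9.43 against 9.67 with LPS alone, and in NDI1 both means were 9.62.

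Among the IFIT proteins, which bind foreign RNA, Ifit1 counted 89.7, 112, 56.0, 107 and 82.4 CPM in untreated WT (mice 449, 452, 453, 496 and 520, the order used for WT throughout). With LPS it counted 8599, 6178, 5257, 5622 and 7292 CPM, a log2 fold change of 6.20 (SE 0.34, adjusted p = 9.71e-18). The lowest LPS library was far above the highest untreated one. In NDI1 it went from 58.2, 106, 41.8, 136 and 88.8 CPM (mice 447, 460, 461, 503 and 521, the order used for NDI1 throughout) to 5153, 4705, 7161, 5693 and 8065, again without overlap. The log2 fold changes in WT were 5.86 for Ifit2, 4.49 for Ifit3 and 4.38 for Ifit3b. Ifit3 shares 41.1% of its 75-base stretches with other genes, chiefly Ifit3b, so reads of this pair may have been divided between them or lost.

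OAS enzymes make short oligoadenylates that activate RNase L. Oas2 rose in WT from 35.5, 21.4, 11.4, 30.9 and 19.2 CPM to 166, 112, 71.2, 133 and 115 (log2 fold change 2.34, SE 0.29). The untreated library of mouse 449 was the highest of its group, as was its LPS library. Oas1a, Oas3 and Oasl2 rose by 2.46, 2.48 and 2.79 on the log2 scale, whereas Oasl1, an OAS-like protein known to limit translation of Irf7, rose by 5.94. Oas1a shares 47.6% of its 75-base stretches with other genes, mainly Oas1g, so its level is uncertain.

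The viperin locus had the largest median response of any role in WT (7.08). Rsad2 encodes viperin, which makes a chain-terminating nucleotide, and it rose from 136, 224, 98.4, 195 and 81.0 CPM to 26845, 21617, 15617, 22792 and 18046 in WT (log2 fold change 7.16, SE 0.42). Its neighbour Cmpk2, a mitochondrial nucleotide kinase, rose by 7.0. In NDI1 BMDMs Rsad2 rose from 120.2, 209, 64.4, 266 and 96.3 CPM to 17731, 15456, 21294, 22832 and 19412. In neither genotype did the groups overlap.

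Mx2, an antiviral dynamin-like GTPase, rose from 3.91, 4.36, 1.76, 4.77 and 2.09 CPM in untreated WT to 413, 259, 177, 347 and 309 with LPS (log2 fold change 6.48, SE 0.32). Its resting level in WT was the lowest of any member per kilobase of the deposited gene length. Mx1 rose by 6.62. The immunity-related GTPases Igtp and Ifi47, which act on vacuoles that hold pathogens, rose by 4.75 and 4.53. Parp14, a mono-ADP-ribosyltransferase, rose from 349.8, 455, 287, 583 and 391 CPM to 3910.1, 3519, 2253, 3882 and 2964 (log2 fold change 3.00, SE 0.24). Parp9 and its partner ubiquitin ligase Dtx3l rose by 3.02 and 2.71. These last 2 genes lie head to head with 458 bases of exon in common on opposite strands, and since the strand setting of the counting is not given in the sources used here, reads there cannot be assigned.

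Isg15, the ubiquitin-like modifier, rose from 26.0, 22.5, 15.8, 43.4 and 21.8 CPM in WT to 1248, 915, 856, 1168 and 1251 (log2 fold change 5.39, SE 0.35). Usp18, which removes ISG15 from proteins, rose by 5.28 and Herc6, an ISG15 ligase, by 4.19. Among TRIM ubiquitin ligases, Trim21, a cytosolic antibody receptor, rose by 3.93, Trim30a, a feedback regulator of TLR signalling, by 3.10 and Trim25, a ligase of RNA sensing, by 1.65. Among the sensors, Ifih1, which encodes MDA5, rose from 73.0, 76.9, 61.9, 81.7 and 71.8 CPM to 2464, 1933, 1479.5, 2126 and 2089.9 (log2 fold change 4.79, SE 0.23). Dhx58 (LGP2), the helicase Ddx60 and the Z-nucleic acid sensor Zbp1 rose by 3.19, 3.43 and 3.63. For Isg15 and Ifih1 no untreated library came near an LPS library.

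Bst2, or tetherin, which holds budding virions at the cell surface, was already high at rest and rose from 143, 97.1, 86.1, 151 and 98.2 CPM to 413, 311, 239, 418 and 352 (log2 fold change 1.59, SE 0.21). Ifitm3, which blocks virus fusion in endosomes, rose by 2.11. The exonuclease Isg20 rose by 5.71, and the translation inhibitor Samd9l and the Schlafen proteins Slfn5 and Slfn8 by 3.23, 3.25 and 3.72. Among the remaining 8 genes, Xaf1, a partner of the apoptosis inhibitor XIAP, rose from 24.5, 19.0, 15.8, 22.7 and 16.2 CPM to 248, 187, 172, 219 and 217 (log2 fold change 3.41, SE 0.20). Ifi44, Ifi35, the receptor chaperone Rtp4, the nuclear body protein Sp100, Epsti1, the secreted glycoprotein Lgals3bp and the ATPase Tor3a rose by 4.41, 3.18, 2.39, 2.33, 2.44, 1.14 and 3.18. The standard errors of the 42 WT fold changes ran from 0.155 to 0.528, and the largest adjusted p was 7.44e-05.

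**Figure D2:**
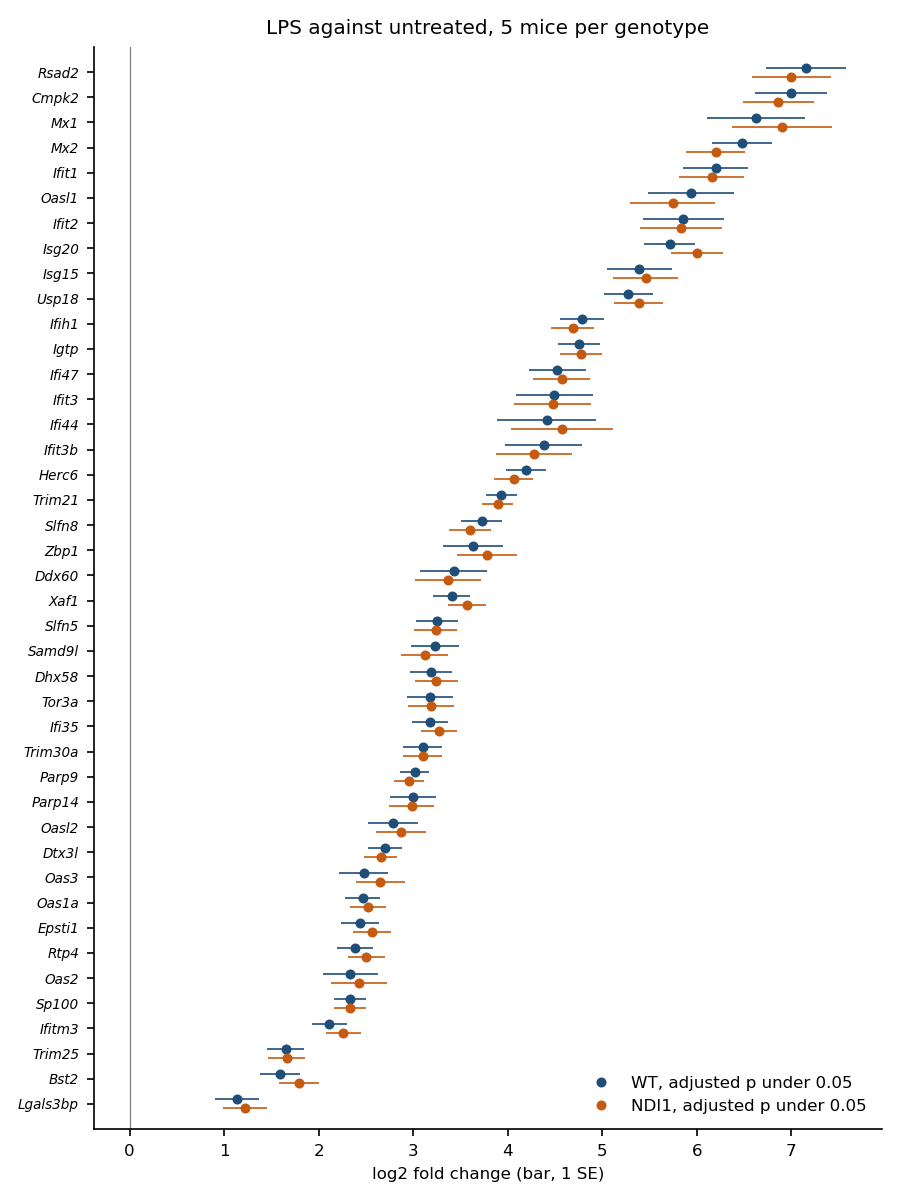
Log2 fold change by LPS (x axis) of each of the 42 genes (y axis, sorted), for WT and NDI1 BMDMs, with bars of 1 SE from edgeR. All points lie to the right of 0, from 1.14 for Lgals3bp to 7.16 for Rsad2 in WT.

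No member was called different between the genotypes in its LPS response. The difference in log2 fold change between NDI1 and WT ran from -0.28 to 0.29 over the 42 genes, with a median SE of 0.316. The interaction test called 0 of 42 members with edgeR (0 at an unadjusted p under 0.05) and 0 with DESeq2, and 0% of all genes tested. A test that misses its threshold does not show that the responses were equal.

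Levels between genes can be compared only per length, as CPM per kilobase of the deposited gene length. At rest in WT, Ifitm3 (393 ± 82.2), Bst2 (151 ± 39) and Lgals3bp (127 ± 41.7, SD, n = 5) stood highest, the last 2 within their spread of each other. Mx2 (0.397), Isg20 (0.545), Ifi44 and Mx1 (1.20 each) stood lowest. With LPS the order changed, and Cmpk2 (2873 ± 690), Rsad2 (2500 ± 517), Ifit1 (2481 ± 513) and Ifit2 (1978 ± 486) led, and no neighbours in that order were apart by more than the larger of their SDs. Ifitm3 came next at 1698 CPM per kilobase, and Oas2, at 10.8, was lowest.

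Piericidin A alone moved single members in untreated WT BMDMs in both directions, with more of them lower than higher. Oasl1 rose, and Trim21, Ifi47, Parp9 and Dtx3l fell, so that 5 of 42 genes were called where 14.8% of all genes tested were called (7.79% up and 7.05% down). At an unadjusted p under 0.05 there were 15 members and 3386 of all 11853 genes. DESeq2 called 9 members, 2 up and 7 down, and 2161 of all 11853 genes. The log2 fold change was negative for 30 of the 42 genes (5935 of all 11853), with a median of -0.25, and positive for 12. Within each WT mouse the mean of the 42 log2 values was lower in the piericidin A well than in the untreated well, with a mean difference of -0.185 ± 0.058 (SD, 5 of 5 mice).

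Oasl1 counted 25.6, 27.9, 17.9, 35.3 and 10.6 CPM in untreated WT and 37.5, 58.6, 39.9, 159.8 and 58.3 with piericidin A. All 5 treated libraries lay above all 5 untreated ones, and that of mouse 496 stood far above the others. The log2 fold change was 1.60 (SE 0.38, adjusted p = 0.00376), and without mice 496 and 503 it was 1.25 (adjusted p = 0.00284). Exon sequence of Oasl1 overlaps another gene over 38 bases.

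Trim21 counted 23.8, 30.1, 25.2, 30.3 and 27.5 CPM in untreated WT and 11.4, 18.3, 16.1, 13.1 and 13.7 with piericidin A. Every treated library was below every untreated one. The log2 fold change was -0.91 (SE 0.15, adjusted p = 6.25e-05), and -0.84 without both mice (adjusted p = 0.0024). Ifi47 went from 61.8, 73.0, 46.4, 94.3 and 59.1 CPM to 28.3, 48.6, 31.4, 55.8 and 29.2, lower in each mouse but with groups that overlapped. Its log2 fold change was -0.79 (SE 0.27, adjusted p = 0.0392). Parp9 fell by 0.57 on the log2 scale (SE 0.15, adjusted p = 0.007) and Dtx3l by 0.62 (SE 0.17, adjusted p = 0.011). Without mice 496 and 503 only Oasl1 and Trim21 of the 42 were still called, and 909 of the 11768 genes then tested. The groups did not overlap for Oasl1 (higher) and for Trim21 and Parp9 (lower), 3 of 42 members, against 11.4% of all genes.

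The 4 wells of a mouse come from 1 marrow, and a second fit took the mouse as a block. In it 20 members were called, 3 up and 17 down, where 34.2% of all genes were called (17.2% up and 16.9% down). The 3 that rose were Oasl1, Rsad2 (log2 fold change 0.90, adjusted p = 0.00741) and Ifitm3 (0.32, adjusted p = 0.0131). The largest falls were those of Trim21 (-0.92), Ifi47 (-0.79), Dtx3l (-0.62), Ddx60 (-0.61) and Slfn5 (-0.58). With the block and without mice 496 and 503 15 members were called, 2 up and 13 down, and 2699 of 11768 genes. Counted by mouse, 21 of the 42 genes were lower in the piericidin A well of all 5 WT mice, against 21.7% of all genes, and 4 (Ifitm3, Isg15, Oasl1 and Rsad2) were higher in all 5, against 21.5%. Rsad2 counted 180.3, 320.4, 206, 412 and 225 CPM with piericidin A alone, above its untreated well in every mouse.

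By role, the 3 ADP-ribosylation genes and the 4 sensors had negative log2 fold changes, with medians of -0.57 and -0.31. Without the block Parp9 and Dtx3l passed the test and 0 of the 4 sensors did (0 at an unadjusted p under 0.05, lowest adjusted p = 0.229 with edgeR). With the block all 3 ADP-ribosylation genes fell, as did 2 sensors, 2 GTPases, 2 genes of ISG15 and ubiquitin ligation, 3 restriction factors, 4 of the mixed group and 1 of the OAS family. The 4 GTPases had a median of -0.47 and the OAS family one of -0.14. The viperin locus had a positive median of 0.53, with neither gene called without the block.

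**Figure D3:**
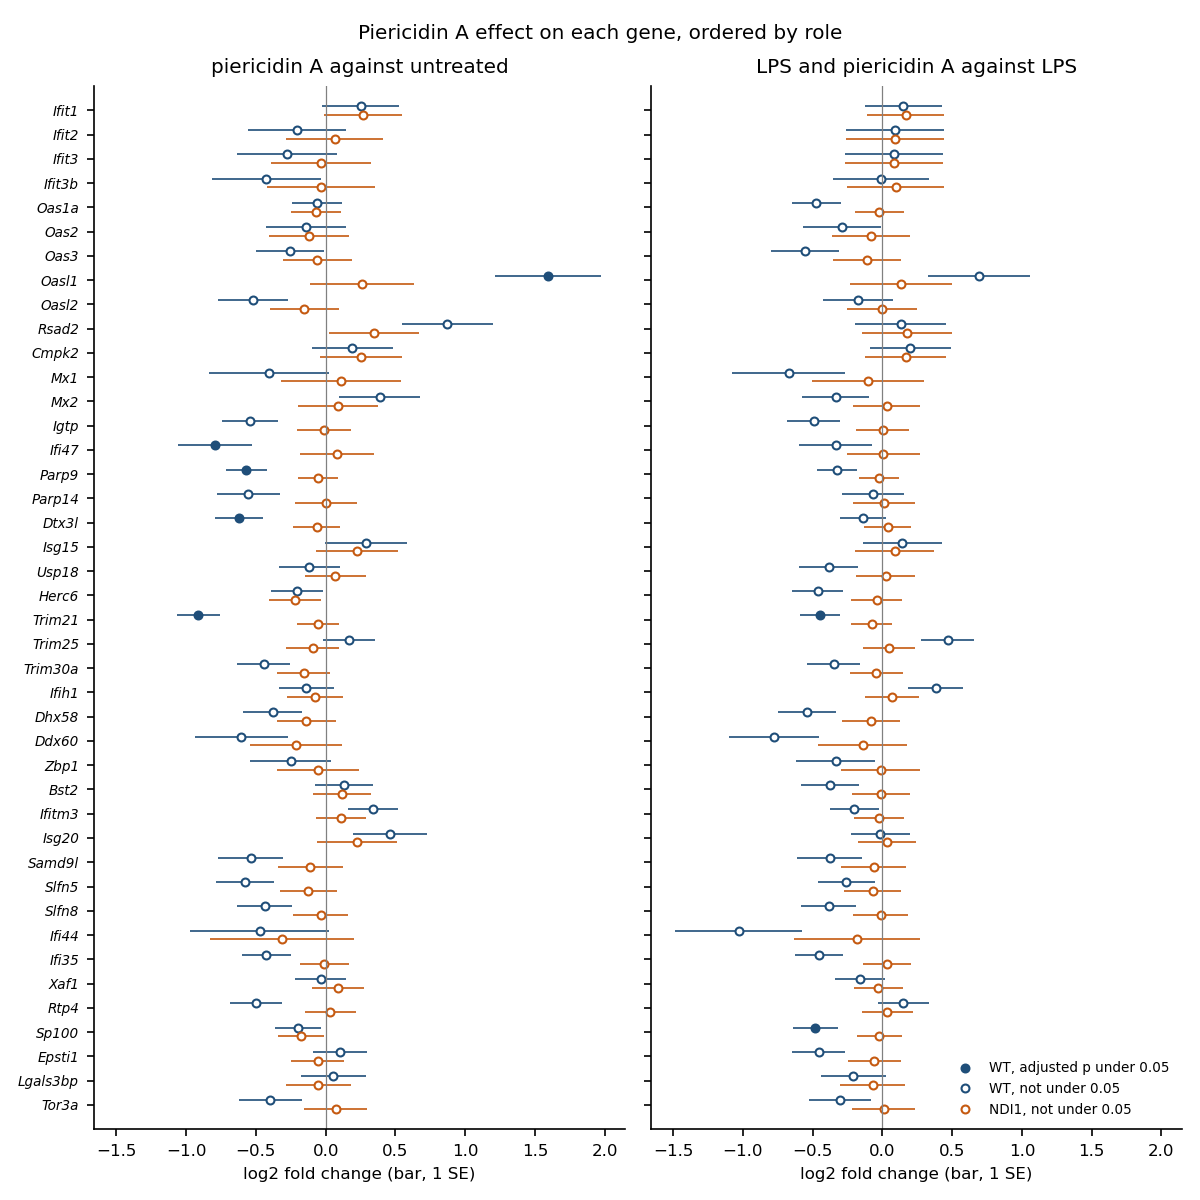
Log2 fold change by piericidin A (x axis, bars of 1 SE from edgeR) for each of the 42 genes grouped by role (y axis), in cells without LPS and in LPS-treated cells as separate panels. Filled symbols mark an adjusted p under 0.05, reached by 5 members without LPS and 2 with LPS in WT and by none in NDI1.

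In LPS-treated WT BMDMs piericidin A left the interferon-stimulated genes strongly induced, most of them at slightly lower levels. Of these, 2 passed the test without the mouse as a block and 18 with it (8.92% and 18.9% of all genes were called lower). This comparison uses the same LPS libraries as the LPS response above. The median log2 fold change of piericidin A with LPS against LPS alone was -0.32, against -0.016 over all genes tested, and 32 of the 42 genes were lower (6110 of all 11853). Without the block only Trim21 and Sp100 passed the test, 2 of 42 where 16.7% of all genes were called (7.81% up and 8.92% down). DESeq2 also called 2 members, and 2196 of all 11853 genes. In edgeR 13 members and 3682 of all genes had an unadjusted p under 0.05. Without mice 496 and 503 edgeR called 0 members (7 at an unadjusted p under 0.05) and 956 of 11768 genes. The mean of the 42 log2 values was lower with piericidin A in 5 of 5 WT mice, with differences from -0.356 to -0.0543 (mean -0.239 ± 0.123, SD).

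Trim21 counted 529, 393, 341, 406 and 421 CPM with LPS and 419, 345, 278, 222 and 267 with LPS and piericidin A. It was lower in each mouse, most of all in 496, and the groups overlapped. The log2 fold change was -0.45 (SE 0.15, adjusted p = 0.0299). Sp100 counted 547, 450.3, 362, 570.3 and 514 CPM with LPS and 432, 421, 233, 361 and 306 with both. It too was lower in each mouse, and the groups overlapped. The log2 fold change was -0.48 (SE 0.16, adjusted p = 0.037).

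With the mouse as a block 20 members were called, 2 up and 18 down, where 34.5% of all genes were called (15.6% up and 18.9% down). The largest falls were those of Ifi44 (-1.20, adjusted p = 1.18e-06), Ddx60 (-0.86, adjusted p = 1.05e-06), Mx1 (-0.64), Oas3 (-0.59) and Dhx58 (-0.55). The 2 rises were those of Oasl1 (0.72, adjusted p = 0.0181) and Trim25 (0.47, adjusted p = 0.032). With the block and without mice 496 and 503, 14 were called, 1 up and 13 down, and 2659 of 11768 genes. By mouse, 25 members were lower in all 5 WT mice, against 21.5% of all genes, and Ifih1, Ifit3, Oasl1, Rtp4 and Trim25 were higher in all 5, against 16.2% of all genes.

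Ifi44, a cytoplasmic protein of incompletely known function, counted 337, 207, 126, 192 and 131 CPM with LPS and 207, 124, 57.7, 64.5 and 32.2 with LPS and piericidin A. All 5 mice were lower, mouse 520 most of all, while mouse 449 with both treatments matched the LPS level of mouse 452, and without the block the adjusted p was 0.116. Ddx60, a helicase that assists RNA sensing, went from 358, 251, 152, 289 and 278 CPM to 241, 186, 59.9, 159 and 129, also lower in all 5 mice with overlapping groups (adjusted p = 0.0916 without the block). Both genes were chosen for print after their blocked values were seen.

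Oasl1 moved the other way. It counted 1909, 1302, 1117, 1786 and 1078 CPM with LPS and 2573, 1951, 1994, 2905 and 2193 with LPS and piericidin A, and all 5 libraries with piericidin A lay above all 5 without it, the single member whose groups did not overlap here (7.88% of all genes). Its log2 fold change of 0.69 (SE 0.36) missed the threshold without the block (adjusted p = 0.193). The MDA5 gene Ifih1 counted 2594, 2013, 1531, 3390.4 and 3613 CPM with both treatments, above the same mouse's LPS library in all 5 (log2 fold change 0.38, adjusted p = 0.181).

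By role, all 4 GTPases, all 6 restriction factors and 7 of 8 in the mixed group had negative log2 fold changes, with medians of -0.41, -0.32 and -0.38, and of these 18 genes Sp100 alone passed the test without the block. With it 2 GTPases, 3 restriction factors and 4 of the mixed group fell, as did 3 of the OAS family, 3 of ISG15 and ubiquitin ligation, 2 sensors and 1 ADP-ribosylation gene. No difference between roles was tested. The IFIT proteins and the viperin locus had medians of 0.09 and 0.16, with no gene called in either fit. Ifit1 counted 8598, 7473, 5244, 6647 and 8599 CPM with both treatments, and Rsad2 24934, 24584, 13069.7, 27708 and 24468. Isg15 counted 1352, 1071, 1209, 1189 and 1184 CPM. All 3 genes overlapped their LPS libraries.

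Of the members printed for the other roles, Oas2 counted 136, 102, 49.0, 115 and 86.6 CPM with both treatments, Mx2 329, 257, 172, 219 and 215 and Parp14 3591, 3346, 1744, 3982 and 3097. Bst2 counted 347, 276, 239.8, 261 and 211 CPM and Xaf1 227, 182, 155, 168 and 199.8. None of these 5 passed the test without the block, and each overlapped its LPS group. With the block Oas2 (-0.31, adjusted p = 0.046) and Bst2 (-0.35, adjusted p = 0.0298) were called.

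In NDI1 BMDMs no member passed the test for piericidin A, with or without LPS. Without LPS the 42 log2 fold changes ran from -0.31 to 0.35 (median SE 0.224), and with LPS from -0.18 to 0.18 (median SE 0.218). In each comparison edgeR called 0 members (0 at an unadjusted p under 0.05), DESeq2 called 0, and 0% of all genes tested were called. With the mouse as a block there were also 0 calls, with 2 and 0 members at an unadjusted p under 0.05. The medians were -0.03 without LPS and -0.01 with it.

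Trim21 in NDI1 counted 25.4, 28.8, 22.6, 30.4 and 30.5 CPM untreated and 26.4, 26.0, 20.7, 26.0 and 33.3 with piericidin A, and the groups overlapped fully. With LPS it counted 345, 363, 482, 407 and 451 CPM, and 344, 337, 444, 388 and 426 with both. Oasl1 counted 15.8, 24.8, 11.2, 53.8 and 14.5 CPM untreated and 24.8, 29.5, 11.1, 52.9 and 25.5 with piericidin A, with mouse 503 the highest in both. With LPS it counted 1057, 1139, 1353, 1758 and 1126 CPM, and 1301, 1175, 1375, 1911 and 1288 with both treatments. Each of the 5 NDI1 mice was higher for Oasl1 with both than with LPS alone, by 0.02 to 0.30 on the log2 scale, against 0.43 to 1.03 in the WT mice.

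Ifi44 in NDI1 counted 112, 117, 208, 239 and 112 CPM with LPS and 95.1, 106, 171, 213 and 111 with LPS and piericidin A, and Sp100 397, 419, 503, 551 and 474 and 379, 386, 469, 567 and 502. Both pairs of groups overlapped. Under LPS the mean of the 42 log2 values differed between the wells of a mouse by -0.0567 to 0.0381, lower in 2 of 5 NDI1 mice. Without LPS the difference ran from -0.224 to 0.296, lower in 3 of 5. By mouse, 4 members were lower and 3 higher in all 5 NDI1 mice under LPS (4.64% and 4.4% of all genes), and without LPS 2 were lower and 0 higher (3.58% and 3.73%).

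**Figure D4:**
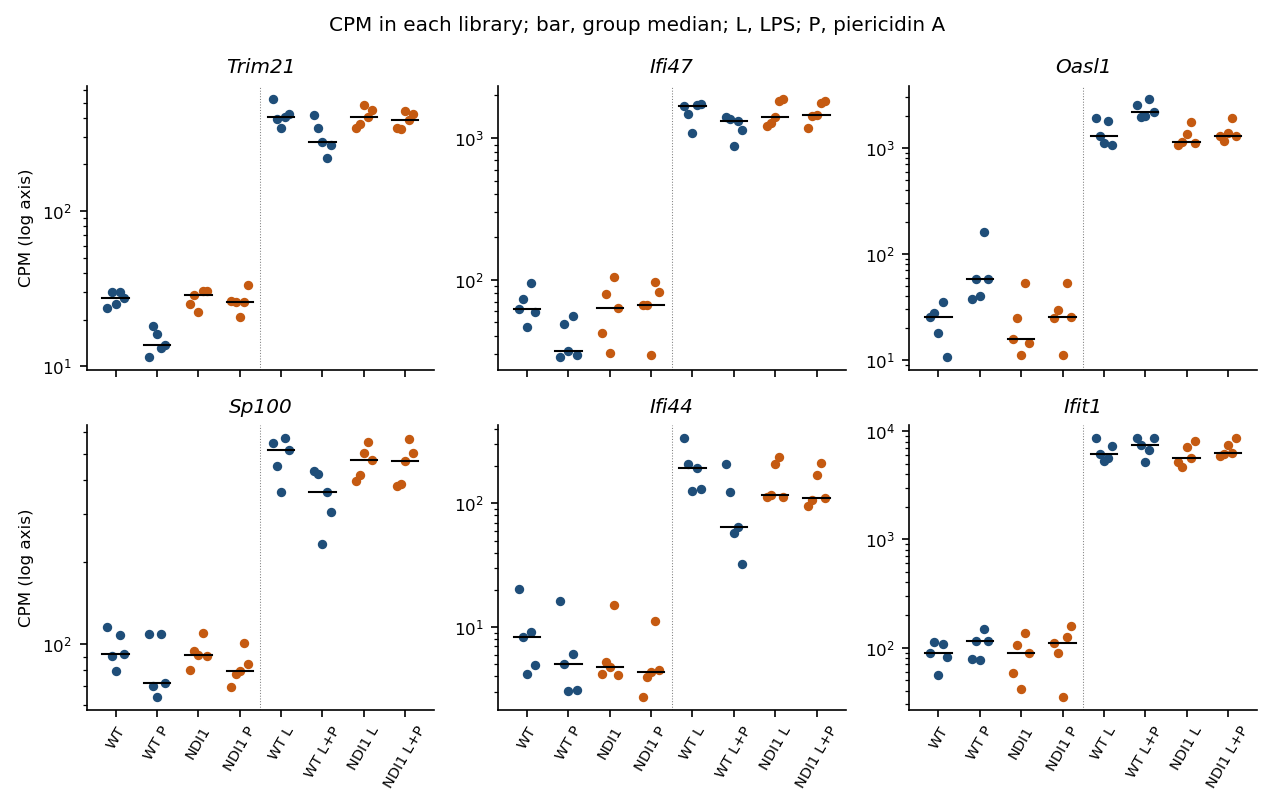
CPM (y axis, log scale) of Trim21, Ifi47, Oasl1, Sp100, Ifi44 and Ifit1 in every library of the 8 groups (x axis). Points are libraries and bars the group median; Oasl1 in WT with LPS and piericidin A lies at 1951 to 2905 CPM, above all 5 WT LPS libraries (1078 to 1909 CPM), and the NDI1 groups with and without piericidin A overlap.

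The piericidin A effect itself was then compared between the genotypes. Without LPS it passed the test for 1 member, Trim21, which fell in WT and had a log2 fold change of -0.06 in NDI1 (difference in log2 fold change 0.86, SE 0.21, adjusted p = 0.0298), where 1.27% of all genes were called. Without mice 496 and 503 edgeR called 0 members (4 at an unadjusted p under 0.05) and 73 of 11768 genes. With the mouse as a block 6 were called, against 8.96% of all genes. In Trim21, Ifi47, Parp9, Dtx3l and Rtp4 the NDI1 effect was the higher, and in Oasl1 the lower (-1.20, adjusted p = 0.0304). With the block and without both mice Trim21, Ifi47 and Rtp4 were called, 3 of 42 members, and 397 of 11768 genes.

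Under LPS the effect of piericidin A was higher in NDI1 than in WT for 34 of 42 members and 6181 of all 11853 genes, with median differences of 0.31 and 0.02, and no member passed the test. The edgeR count was 0 (0 at an unadjusted p under 0.05, lowest adjusted p = 0.364) and the DESeq2 count 0, where 0.979% of all genes were called. With the mouse as a block 4 were called, against 9.51% of all genes. These were Ifi44 (1.03, adjusted p = 0.00378), Ddx60 (0.72, adjusted p = 0.00453), Sp100 (0.46, adjusted p = 0.015) and Epsti1 (0.40, adjusted p = 0.0405), and Ifi44 and Ddx60 were also called with the block when both mice were left out, as were 290 of 11768 genes.

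Whether piericidin A changed the LPS response was tested in each genotype. In WT edgeR called 0 members (5 at an unadjusted p under 0.05, against 2173 of all 11853 genes, lowest adjusted p = 0.149) and DESeq2 0, where 4.75% of all genes were called. With the block 3 were called, against 17.4% of all genes. The LPS response was smaller with piericidin A for Epsti1 (-0.54, adjusted p = 0.00371) and Ifitm3 (-0.48, adjusted p = 0.0157) and larger for Rtp4 (0.63, adjusted p = 0.00556). In NDI1 the count was 0 with edgeR (0 at an unadjusted p under 0.05), with the block and with DESeq2, and 0% of all genes.

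NDI1 and WT BMDMs were also compared directly at each treatment. A mouse has 1 genotype, so these comparisons have no mouse block. Untreated and with LPS edgeR called 0 members (0 at an unadjusted p under 0.05 in each), DESeq2 called 0, and 0% of all genes were called. With piericidin A 4 members differed, where 7.8% of all genes did. Trim21 (0.86, SE 0.15, adjusted p = 2.03e-04), Parp9 (0.55, SE 0.15, adjusted p = 0.0127) and Dtx3l (0.55, SE 0.17, adjusted p = 0.0379) were higher in NDI1, and Oasl1 was lower (-1.30, SE 0.38, adjusted p = 0.0252). Without mice 496 and 503 Oasl1 and Trim21 were called, 2 of 42 members, and 458 of 11768 genes. Without WT mouse 496 alone the Oasl1 difference was -0.77 (adjusted p = 0.212). With LPS and piericidin A Ifi35, a leucine zipper protein, was higher in NDI1 (0.56, SE 0.17, adjusted p = 0.0273), where 12% of all genes differed, and without both mice 0 members (5 at an unadjusted p under 0.05) and 574 of 11768 genes were called. The comparisons of the NDI1 and WT effects share their libraries with those above and are not separate evidence.

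The genes that make and transmit the interferon signal were read from a list of 17, of which 16 passed the filter and Ifna4 was at 0 in every library. LPS raised 15 of the 16 in each genotype and lowered 0. In WT the feedback inhibitor Socs1 rose by 6.64 on the log2 scale, Irf7 by 3.30, Irf1 by 3.06 and Stat2 by 2.97. Irf3 did not pass the test (-0.23). Ifnb1, interferon beta, was at 0 in all untreated libraries of both genotypes and at 0.558 to 3.13 CPM in WT with LPS.

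In untreated WT piericidin A raised Socs1 (1.59) and Ticam1 (0.80) and lowered Stat2 (-0.64) and Irf3 (-0.37). In LPS-treated WT it raised Ifnb1, Irf8 (1.16) and Socs1 (1.04) and lowered 3 genes, among them Ifnar1 (-0.81) and Tyk2 (-0.59). In the blocked fit the totals over the 16 genes went from 2 up and 2 down to 2 and 6 in untreated WT, and from 3 up and 3 down to 4 and 9 in LPS-treated WT. Over all genes, 7.79% were called up and 7.05% down in untreated WT, and 7.81% and 8.92% in LPS-treated WT. With the block these shares were 17.2% and 16.9%, and 15.6% and 18.9%. Ifnb1 counted 8.96 to 118 CPM with both treatments in WT, and without the block its log2 fold change over LPS alone was 4.94 (SE 0.61, adjusted p = 6.18e-06), without overlap. In NDI1 it counted 0.439 to 2.81 CPM with LPS and 0.775 to 3.14 with both, and the difference between the genotypes was -4.87 (adjusted p = 0.0079). In NDI1 piericidin A changed 0 of the 16 with edgeR in either comparison. In the same WT libraries the 42 effector genes had a mean log2 CPM of 9.43 ± 0.32, against 9.67 ± 0.29 with LPS alone (SD, n = 5).

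Genes of 2 other pathways were counted in the same fit. Of 12 NF-kB target genes, LPS raised all 12 in each genotype, and piericidin A raised 10 in untreated WT and 0 in LPS-treated WT, where 6 had a positive and 6 a negative fold change (with the mouse as a block, 10 up in untreated WT and 1 down in LPS-treated WT). Of 11 ATF4 stress response genes, piericidin A raised 8 in untreated WT and 2 in LPS-treated WT, and 11 and 6 with the block. Over all genes tested it raised 7.79% in untreated WT and 7.81% in LPS-treated WT, and 17.2% and 15.6% with the block. In NDI1 0 of either list were called, with or without the block.

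The 42 genes varied together from library to library. Over the 40 libraries the median Pearson r between their log2 CPM was 0.977 for 861 pairs, a value that includes the LPS response of all 42. After the group means were removed the median was 0.623, against 0.0044 for all genes tested. These values describe libraries that share mice and depth. Ifit3 was closest to the rest in these deviations (r = 0.959) and Trim25 farthest (r = 0.025). Outside the set, the genes whose log2 CPM followed the mean of the 42 most closely were Daxx (r = 0.998), Phf11b (0.997), Ifi209 (0.997), Gbp3 (0.996) and Trim30c (0.996), each over 40 libraries. The values of these outside genes also include the LPS response and were not computed with the group means removed.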

How the data were processed

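Gene counts were analysed for 40 libraries, 8 groups of 5 mice each. The deposited table holds raw read counts per gene, made by the authors from NEBNext Ultra polyA libraries with bcl2fastq, Trimmomatic, STAR and HTSeq on mm10. Trimmomatic was version 0.39, and the other versions and the strand setting are not given in the sources used here. Of its columns, 1 pooled column of unassigned reads was not used. The NDI1 transgene was not analysed here, and 1 gene of the signalling list is not reported here.

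Genes were filtered with filterByExpr (11853 of 43430 kept), scaled by TMM and fitted with the quasi-likelihood test of edgeR 4.0.16 (R 4.3.3) over all 8 groups, with Benjamini-Hochberg adjustment over all genes tested and a threshold of 0.05. Log2 CPM used a prior count of 2. The fit was tested on simulated counts. Of 200 genes changed by 1 on the log2 scale it recovered 65.5% for the piericidin A effect in WT under LPS and 45.5% for the genotype difference in it (89.5% and 79.5% at 2). The simulated libraries had no mouse effect and no change below 1, so recovery at the smaller effects of most members was not tested.

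The 4 wells of a mouse share its number in the labels, and over all tested genes their deviations from the group means correlated (mean r = 0.453 for the 60 same-mouse pairs, from 0.0995 to 0.769, and -0.107 for 240 pairs from unlike mice). Member counts with the mouse block are given where they differ by over 1.5 times from those without it. No replicate pair agreed within sampling noise (chi-square per degree of freedom at least 9.60). P-values without the block measure the spread between the libraries of a group and treat the wells of a mouse as independent. Those with the block measure the spread left after the level of each mouse is removed.

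Members, roles, gene lists and tests were chosen with earlier results of these data known. Named genes are every called member, or the 5 largest rises and falls where over 12 were called, and 1 example per role fixed by name. Alternatives were DESeq2 1.42.0, RLE factors, other filters and prior counts, the compared groups alone, the mouse block and leaving out each mouse. Sequences came from RefSeq, and exon overlaps from the annotation supplied with the genome. Gene lengths were those deposited with the counts. The precision of a low gene is limited by its count.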

Additional observations from a re-analysis of the deposited data

Results flagged for a closer look

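Of 120 groups of 5 values tested for a single value far from the rest, 5 exceeded the 95% critical value of 0.71, about 1 in 20 being the share chance gives. Oasl1 in WT with piericidin A was highest in mouse 496, at 159.8 CPM. Oasl1 in NDI1 with LPS and piericidin A was highest in mouse 503, at 1911 CPM, and Mx2 in untreated NDI1 was highest in the same mouse, at 5.73 CPM. Rsad2 in WT with LPS and piericidin A was lowest in mouse 453, at 13070 CPM. The rise in the mean log2 CPM of the 42 genes from piericidin A to LPS and piericidin A in NDI1 was highest in mouse 461, at 4.61. Mice 496 and 503 also held the highest neutrophil marker sums, and the part of that in these values was not tested.

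Trim21 differed between the genotypes in its response to piericidin A without LPS, by 0.86 on the log2 scale (edgeR adjusted p = 0.0298). The adjusted p ran from 0.0267 to 0.113 when single mice were left out, missing the threshold in 6 of 10 cases, and was 0.157 without mice 496 and 503 and 0.00531 with the mouse block.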

How the results depend on the processing

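The 42 calls by LPS in each genotype, and the 0 calls by piericidin A in NDI1, held under every alternative run. None of the named members recomputed changed sign. Of the medians, only that by piericidin A in LPS-treated NDI1 changed sign, running from -0.023 to 0.0082. Results of the signalling, NF-kB and ATF4 lists were recomputed with the mouse block alone, and the correlations under no alternative. The count for piericidin A in untreated WT (5) became 9 with DESeq2, 8 with a minimum of 10 counts in every library, 20 with the mouse block, 2 to 8 without single mice (2 without WT 496), 2 without mice 496 and 503, and 15 with the block and without both. The count in LPS-treated WT (2) became 1 with no filter, 1 with the compared groups alone, 20 with the block, 0 to 4 without single mice (0 without WT 496 or WT 520), 0 without both mice and 14 with the block and without both. The count of piericidin A effects that differ between genotypes without LPS (1) became 6 with the block, 0 to 1 without single mice, 0 without both and 3 with the block and without both. Under LPS it (0) became 4 with the block and 2 with the block and without both. LPS effects in WT changed by piericidin A (0) became 3 and 2 in these fits. Members that differ between NDI1 and WT with piericidin A (4) became 1 with the compared groups alone, 2 to 5 without single mice and 2 without both, and those with LPS and piericidin A (1) became 0 to 2 and 0. Both mice were chosen for omission after the data were seen. The cause of these changes was not tested, and omission leaves fewer mice in the fit.

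The median log2 fold change by piericidin A stayed negative throughout, from -0.29 to -0.22 in untreated WT and from -0.36 to -0.26 in LPS-treated WT. Sp100 in LPS-treated WT had an adjusted p of 0.027 to 0.175 without single mice, and Trim21 one of 0.021 to 0.16.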
